A study of Mus musculus with 16 samples.

Results

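The mouse side of vehicle-treated breast tumour xenografts was described from 4 RNA sequencing libraries, those of mice 3, 6, 21 and 29. They were chosen by their column labels as the vehicle group and are 4 of the 16 libraries of the study. The tumours were grown from AU565(pv), a human HER2-positive breast cancer cell line, in a mammary fat pad, and the hosts were SCID mice, whose defect in Prkdc leaves them without mature T and B lymphocytes. Dosing began when tumours measured 20 to 25 mm2. The other 12 libraries came from mice given trastuzumab, panobinostat or both, and they are not compared here. These 4 mice were not left untreated: they received D5W (a sugar solution) on days 0 and 1 and phosphate-buffered saline on day 0, both into the peritoneum. Whole tumours, tumour cells and host tissue together, were taken 2 days after the start of dosing. The labels give no age or sex of the mice, no date and no batch. Each library came from its own mouse, so the spread described below is that between animals together with the handling of each tumour.

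A tumour growing under the skin in a fat pad is built on tissue borrowed from the host. Fibroblasts lay down a collagen scaffold, blood vessels grow in from the surrounding fat, and macrophages enter as monocytes or are already resident. Because the tumour cells are human, reads assigned to mouse genes give a view of this host tissue without sorting cells. SCID mice retain macrophages, neutrophils, mast cells, dendritic cells and natural killer cells. Macrophages and natural killer cells carry Fc receptors, through which an antibody bound to a tumour cell can be recognised.

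The 4 libraries held 4989001 (mouse 3), 6650009 (mouse 6), 5742451 (mouse 21) and 6614605 (mouse 29) counts on mouse genes. Of 24681 gene symbols listed, 14868 (60.2%) had at least 1 CPM (counts relative to the total of the library) in all 4 libraries and are called detected. A further 4953 (20.1%) had at most 3 counts over the 4 libraries together and are called at the floor, and 4860 lay between and are called low. CPM were scaled between libraries by TMM, a correction for differences in composition, and are used to compare one gene between mice. Levels of different genes are compared as TPM, the matching unit for transcripts, which also divides by exon length. In tumour tissue, fewer cells of a type and less RNA per cell cannot be told apart.

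The most abundant transcripts on mouse genes included those of actin handling, translation, lipid transport, macrophages, matrix and fat. Human reads on conserved genes could add to these counts, and their share was not measured. Tmsb4x, which encodes the actin-binding peptide thymosin beta 4, led the table at 15067 ± 924 TPM (SD, n = 4, as for all later errors). Apoe, the lipid carrier that macrophages secrete in quantity, followed at 9019 ± 507 TPM. The next named genes were S100a6 at 8231 TPM, the translation factor gene Eef1a1 at 7581 TPM and Lyz2, the lysozyme of macrophages and neutrophils, at 6813 ± 668 TPM. Ccl8, which encodes a chemokine that attracts monocytes, stood at 6766 ± 2027 TPM. Fabp4, the fatty acid carrier of fat cells, stood at 4244 ± 2156 TPM. Its SD was thus a far larger share of its mean than that of Tmsb4x. Of the 15 highest entries that are not encoded by mitochondria, 3 were predicted loci without an assigned gene name. Loci without a matched exon length have no TPM and could not enter this ranking. Among them was the clone-named locus RP23-81C12.3, with a mean of 6608 CPM, where Lyz2 had 4570 CPM. The median detected gene stood at 16.2 TPM.

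**Figure D1:**
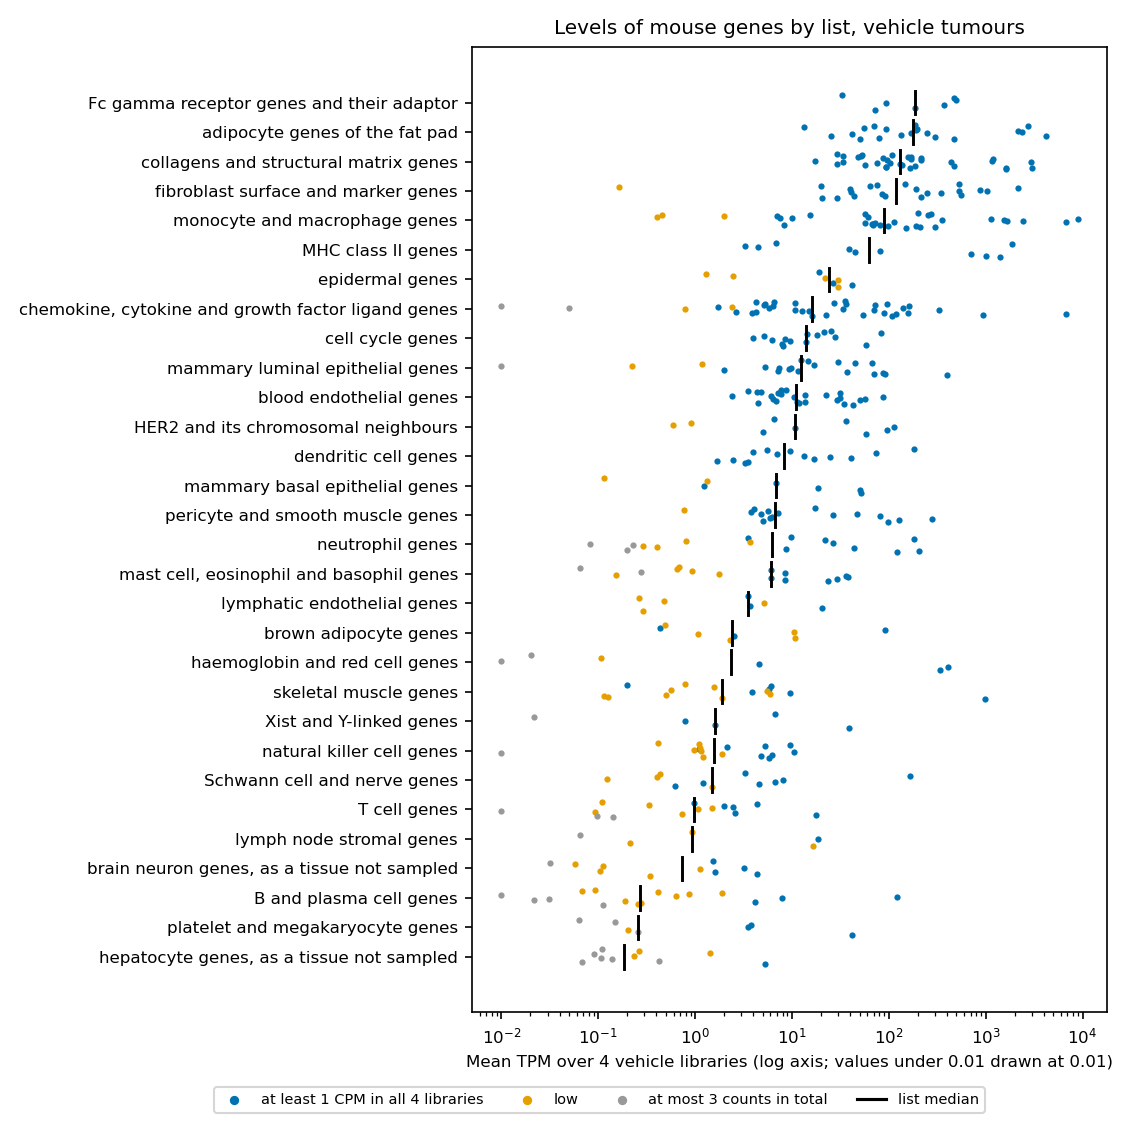
Level of each gene of 30 marker lists, as the mean TPM over the 4 vehicle libraries on a log axis (1 point per gene, coloured by whether it was detected, low or at the floor; the black bar is the median of the list). Fc receptor, adipocyte, matrix, fibroblast and macrophage lists lie to the right, and T cell, B cell, platelet and hepatocyte lists to the left.

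Genes marking 4 compartments of the host were each detected in all libraries. Col1a1 (chr11:94936224-94953042, plus strand, mm10), the main fibrillar collagen chain of fibroblasts, stood at 1608 ± 219 TPM. Adipoq (chr16:23146536-23158028, plus strand), the fat cell hormone adiponectin, stood at 474 ± 164 TPM. Emr1, the older symbol of Adgre1 (chr17:57358691-57483527, plus strand), encodes the macrophage surface protein F4/80. Its level was 151 ± 19.2 TPM. Pecam1 (chr11:106654217-106750628, minus strand), an adhesion protein of vessel lining, stood at 43.2 ± 14.8 TPM. The label of a host stroma with fibroblasts, fat, macrophages and vessels was thus met by its markers in each of the 4 tumours.

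The markers differed in how steady they were between mice. Col1a1 was measured at 5239.9 CPM in mouse 3, 4438 in mouse 6, 5093 in mouse 21 and 4563 in mouse 29. Emr1 was measured at 259.6, 265, 261 and 210.1 CPM in the same order, which is the order used for all values listed below. Neither gene varied by more than 1.26-fold between its lowest and highest mouse. Pecam1 read 106, 53.2, 113 and 86.7 CPM, so that mouse 6 was 2.11-fold under mouse 21. Adipoq read 161, 414, 277 and 411 CPM, and mouse 3 was 2.57-fold under mouse 6. Counting error alone would give these genes a coefficient of variation (CV) of 0.590% (Col1a1) to 4.35% (Pecam1). The measured CVs were 8.12% for Col1a1, 10.5% for Emr1, 29.7% for Pecam1 and 38.4% for Adipoq.

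Collagen and structural matrix genes formed one of the most abundant groups. All 33 listed genes were detected, with a median of 129.8 TPM. Col3a1, the collagen chain of loose and healing tissue, was the highest at 3006 ± 676 TPM, followed by Sparc, a collagen-binding matrix protein, at 2930.0 ± 121 TPM and Col1a2 at 1641 ± 298 TPM. Bgn, the small proteoglycan biglycan, was the steadiest member, at 1491, 1464, 1371 and 1397 CPM. A chi-square test asked for each gene whether its 4 counts differed by more than counting error, with Benjamini-Hochberg adjustment over the 16009 genes that had enough counts. It called 50.8% of those genes at an adjusted p under 0.05, and 33 of 33 matrix genes, Bgn included. This test calls small differences in abundant genes, so the size of a difference is given beside it: 14.4% of all detected genes differed by 2-fold or more between the lowest and highest mouse, and 3 of 33 matrix genes did. These were Postn, Tnc and Col11a1, which encode periostin, tenascin C and a minor fibrillar collagen chain, all found in remodelling stroma. Postn read 2431, 2173, 2361 and 1019 CPM. Tnc read 797, 595, 886 and 388 CPM, and Col11a1 read 139, 100.4, 145 and 65.1 CPM. Mouse 29 was the lowest for each of them, and for 25 of the 33 matrix genes, where it was lowest for 20.2% of all detected genes. Without mouse 29 no matrix gene differed by 2-fold, where 11.6% of all detected genes did. The range of the mean log2 CPM of the list then shrank from 0.46 to 0.12.

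Fibroblast surface and marker genes were detected for 21 of 22, the exception being Tcf21, which was low. The highest were Vim, the intermediate filament of mesenchymal cells, at 2155 ± 264 TPM, Dcn, the proteoglycan decorin, at 1042 ± 246 TPM and S100a4 at 871 ± 127 TPM. Vim and S100a4 are also expressed by macrophages and other motile cells. The receptors by which fibroblasts and pericytes respond to PDGF were lower, with Pdgfra at 20.4 ± 4.41 TPM and Pdgfrb at 29.1 ± 3.68 TPM. The counts of 20 of the 21 tested genes differed beyond counting error, against 50.8% of all tested genes, and Pdgfrb was the one that did not pass. Dpt and Pi16, which mark the fibroblasts that surround vessels and fat lobules, were among the most uneven. Dpt read 311, 711, 349 and 612 CPM, and Pi16 read 147, 354, 199 and 306 CPM. Both were lowest in mouse 3, as were the fat cell genes described below. Lum, which encodes another collagen-binding proteoglycan, instead read 643, 782, 825 and 398 CPM and was lowest in mouse 29, as were most matrix genes.

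Vessel genes were all present but at much lower levels. All 26 blood endothelial genes were detected, with a median of 10.9 TPM. The highest were Plvap, which forms the diaphragms of leaky capillaries, at 87.0 ± 19.6 TPM, Egfl7 at 57.2 ± 1.71 TPM and Eng, a TGF-beta co-receptor, at 50.4 ± 6.74 TPM. The VEGF receptor genes Kdr and Flt1 stood at 11.9 ± 2.42 and 4.42 ± 0.900 TPM. The VEGF gene of the mouse, Vegfa, stood at 35.9 ± 5.96 TPM. Vessel-lining genes had a median CV of 18.2%, against 16.4% for all detected genes. Counts of 17 of 26 differed beyond counting error, against 50.8% of all tested genes, and 3 of 26 genes differed by 2-fold or more, a share near that of all detected genes, namely Pecam1, Cldn5 and Gpihbp1. Without mouse 6, 9 of 26 differed beyond counting error, where the number over all genes fell from 8135 to 5095. Without mouse 3, 1 of 26 differed by 2-fold, against 8.61% of all detected genes. Mouse 6 was the lowest for 14 of 26, against 30.8% of all detected genes. Cdh5, the junction protein VE-cadherin, showed this order at 80.97, 48.2, 86.9 and 61.5 CPM. Gpihbp1, which anchors lipoprotein lipase in the capillaries of fat, ran the other way at 4.52, 14.8, 8.01 and 10.5 CPM. It was highest in mouse 6 and lowest in mouse 3, the order of the fat cell genes.

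Pericyte and smooth muscle genes were detected for 15 of 16. Tagln, an actin-binding protein of smooth muscle and activated fibroblasts, stood at 278 ± 26.4 TPM, Acta2, smooth muscle actin, at 129 ± 13.4 TPM and Rgs5, a pericyte marker, at 98.4 ± 23.5 TPM. Tagln read 222, 237, 239 and 205 CPM and was nearly level over the mice. Myh11, the myosin of mature smooth muscle, was far lower at 5.89 ± 2.49 TPM and less even, at 18.7, 18.0, 29.8 and 11.99 CPM. Lymphatic vessel genes were sparse, with 3 of 7 detected. Prox1, the factor that sets lymphatic identity, had 2, 5, 16 and 6 counts. Lyve1, which lymphatic vessels share with a class of tissue macrophages, read 10.8, 32.3, 13.6 and 67.1 CPM, so it was highest in mouse 29, where Prox1 was not.

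Macrophage genes were abundant and detected for 29 of 32. After Apoe and Lyz2, the highest was C1qa, a chain of the complement protein C1q, at 2437 ± 286 TPM, and its partners C1qb and C1qc stood at 1646 ± 137 and 1559.8 ± 211 TPM. These 3 genes lie side by side on chromosome 4 and their products form 1 complex. Csf1r, the receptor on which macrophages depend, stood at 211 ± 30.6 TPM, and the gene of its ligand, Csf1, at 33.5 ± 5.86 TPM. The mannose receptor gene Mrc1 stood at 191 ± 52.4 TPM and Trem2, a receptor for lipids, at 356 ± 43.4 TPM. Some genes used as labels of polarised macrophages in culture were lower: Arg1 stood at 10.1 ± 1.93 TPM, Nos2 had 2, 3, 6 and 11 counts, and Chi3l3 (Chil3) had 19, 5, 5 and 5 counts. Others were higher than these, namely Mrc1, given above, and Retnla at a mean of 60.3 TPM. Nos2, Chi3l3 and Marco were the 3 listed genes that were not detected.

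Between mice, the counts of 27 of 30 tested macrophage genes differed beyond counting error, against 50.8% of all tested genes. Of the 29 detected genes 4 differed by 2-fold or more, a share near the 14.4% of all detected genes. Mouse 6 was highest for 16 of the 29, against 33.0% of all detected genes, and mouse 29 was lowest for 15, against 20.2%. The 4 genes with a 2-fold range were Cd163, Spp1, Retnla and Timd4. Lyz2 read 4654, 5269, 4358 and 3999.6 CPM. Cd163, the scavenger receptor for haemoglobin bound to haptoglobin, read 106, 243, 133 and 149 CPM and was highest in mouse 6. Spp1, which encodes osteopontin, read 1342, 870.4, 896 and 665 CPM and was highest in mouse 3. Retnla, a secreted protein of alternatively activated macrophages, read 4.32, 14.5, 6.30 and 49.9 CPM, which is 11.6-fold from mouse 3 to mouse 29. Timd4, a receptor for dying cells on resident macrophages, read 3.14, 8.74, 2.90 and 16.9 CPM. Marco, a scavenger receptor of macrophages in body cavities and lymphoid organs, had 0, 0, 0 and 12 counts. Mouse 29 was the highest for 7 of the 29 detected genes, Retnla and Timd4 among them, and for Marco. Emr1 was among the 15 that were lowest there.

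Of the genes through which antibodies are read, all 7 were detected, and their list had the highest median of the 30 lists, at 187 TPM. Fcer1g, the signalling chain that activating Fc receptors share, stood at 499 ± 27.7 TPM. Fcgrt, the neonatal Fc receptor that recycles antibody, stood at 473 ± 118 TPM, and the activating receptor gene Fcgr3 at 374 ± 25.6 TPM. The inhibitory receptor gene Fcgr2b followed at 187 ± 40.7 TPM. The activating receptor genes Fcgr4 and Fcgr1 stood at 93.8 ± 14.8 and 72.9 ± 4.85 TPM. None of the 7 differed by 2-fold or more between mice, against 14.4% of all detected genes. Fcgr2b read 323, 492, 369 and 277 CPM. Fcgr1 read 95.9, 103, 96.1 and 88.8 CPM and was the gene whose counts were not called different beyond counting error. Mouse 6 was highest for 6 of the 7, against 33.0% of all detected genes. Without mouse 6 the range of the list's mean log2 CPM was 0.14 in place of 0.43.

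MHC class II genes, which present peptides to CD4 T cells, were all detected. The invariant chain gene Cd74 stood at 1864 ± 280.3 TPM, and the genes of the classical alpha and beta chains, H2-Aa, H2-Ab1 and H2-Eb1, stood at 1423 ± 254, 1001 ± 69.1 and 709 ± 74.3 TPM. Ciita, the regulator that switches the family on, stood at 6.88 ± 1.03 TPM. H2-Ab1 read 588, 603, 624 and 652 CPM, a 1.11-fold range. Counts of 7 of the 10 genes differed beyond counting error, against 50.8% of all tested genes. A 2-fold range was found for 1 gene, H2-Oa, at 12, 10, 16 and 21 counts, and for 14.4% of all detected genes. Without mouse 29, 3 of 10 differed beyond counting error, where the number over all genes fell from 8135 to 7210. H2-Oa had no 2-fold range without mouse 6 or without mouse 29. Mouse 29 was highest for 9 of 10, against 21.7% of all detected genes. The promoters of H2-Aa and H2-Eb1 are shown because these genes were among the most abundant of their family, which is known for a shared promoter box, CCAAT, which is read on either strand (as CCAAT or ATTGG, in capitals). They are the 60 bases before the RefSeq start (GRCm38.p6), at chr17:34287824-34287883 on the minus strand and chr17:34305807-34305866 on the plus strand.
H2-Aa: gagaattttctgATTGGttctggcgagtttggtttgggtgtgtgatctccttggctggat
H2-Eb1: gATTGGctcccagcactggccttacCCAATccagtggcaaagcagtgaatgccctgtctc

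Over the 250 bases before the start, CCAAT on either strand was found in 7 of the 7 class II genes with a RefSeq promoter, in 33.8% of all 32851 promoters and in 40.3% of those of detected genes. It was also found in 11 of 13 cell cycle genes. A 5-letter match is a description of the sequence and not a binding site.

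Dendritic cell genes were all detected at lower levels. Clec10a, a lectin shared with macrophages, led at 181 ± 62.3 TPM. Xcr1, a receptor of the dendritic cells that cross-present antigen, stood at 1.69 ± 0.199 TPM with 18 to 27 counts a library. Clec10a read 200.3, 371, 199 and 163 CPM and was highest in mouse 6. Ccr7, which guides dendritic cells to lymph nodes, read 6.49, 5.78, 4.60 and 11.7 CPM and was highest in mouse 29. Mouse 21 was lowest for 9 of the 14 genes, against 20.0% of all detected genes. A 2-fold range was found for 6 of 14, against 14.4% of all detected genes. Without mouse 29 it was found for 3 of 14, against 11.6%.

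Granulocyte genes were detected in part. The calprotectin genes S100a9 and S100a8 stood at 203 ± 52.4 and 120.3 ± 30.1 TPM and the lipocalin gene Lcn2 at 182 ± 32.8 TPM. These genes can also be expressed by epithelium and monocytes. Ly6g, the surface marker that defines mouse neutrophils, had 2 counts over the 4 libraries, and the granule protein genes Camp and Ngp had 2 and 1. Ltf, which encodes lactoferrin, a protein of neutrophil granules and of gland epithelium, read 33.6, 12.8, 62.2 and 38.9 CPM. Of 16 neutrophil genes 9 were detected, 4 were low and 3 were at the floor. These shares were near those of all symbols, of which 60.2% were detected and 20.1% were at the floor. Mast cell proteases were present throughout, with Cma1 at 38.0 ± 11.7, Mcpt4 at 35.9 ± 9.55 and Tpsb2 at 29.2 ± 9.03 TPM. Cma1 read 13.2, 30.9, 17.5 and 23.99 CPM, Mcpt4 read 13.8, 29.2, 17.4 and 21.6 CPM, and Tpsb2 read 15.1, 35.8, 20.1 and 25.2 CPM. All 3 had the order of the fat cell genes, lowest in mouse 3 and highest in mouse 6, and the part of fat tissue in this order was not tested. Set beside the same shares, 8 of the 15 listed mast cell, eosinophil and basophil genes were detected and 2 were at the floor. The latter were the eosinophil genes Prg2 and Il5ra, with 3 counts each, while the eosinophil ribonuclease gene Ear2 stood at 6.09 TPM.

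Natural killer cell genes were close to the limit of what this depth shows. Detected genes numbered 8 of 16, against 60.2% of all symbols. The highest was Gzma, a protease of cytotoxic granules, at 10.5 ± 5.10 TPM. Gzma had 42, 32, 13 and 40 counts. Ncr1, the activating receptor that marks these cells, had 24, 27, 20 and 38 counts and stood at 5.76 ± 1.20 TPM. The differences in Ncr1 were within counting error by the chi-square test, and a gene not called is not shown to be equal. Mouse 21 was the lowest for 6 of the 8 detected genes, against 20.0% of all detected genes.

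Lymphocyte genes were detected less often than all symbols, as far as they were listed. Of 15 T cell genes 6 were detected, 6 were low and 3 were at the floor. Of all symbols 60.2% were detected and 20.1% were at the floor. The 6 detected T cell genes had a median of 2.52 TPM. Cd3d and Cd3g of the T cell receptor complex were among those at the floor. Cd3d had 3 counts in all 4 libraries together and Cd3g had 1. Cd247, another listed chain of this complex, was not at the floor, and Cd3e had no matching row. Cd6 had none. Cd4 was detected at 140, 264, 187 and 80 counts, and in mice this gene is also expressed by some macrophages and dendritic cells. Cd8a had 4, 2, 4 and 19 counts. Of 16 B and plasma cell genes 3 were detected, 9 were low and 4 were at the floor. Igj (Jchain), the joining chain of secreted antibodies, had 0 counts, and Ms4a1, a B cell surface protein, had 3, 2, 4 and 0. Ighm, the constant region of IgM, was the highest of this list with 349, 717, 559 and 990 counts, or 122 ± 36.2 TPM. This level was far above that of Cd79a, part of the B cell receptor, which had 1, 2, 1 and 1 counts. Prkdc, the gene that carries the scid mutation, was itself transcribed, at 100, 71, 106 and 104 counts. A count of transcripts does not test the mutation.

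Signals that call or sustain host cells were led by chemokines of macrophages. Of 37 listed chemokine, cytokine and growth factor genes 33 were detected. Ccl8 read 1439, 2685, 1671 and 1311 CPM and was highest in mouse 6. Ccl6, another chemokine of macrophages, stood at 950.1 ± 229.6 TPM and Cxcl14, a chemokine of fibroblasts and epithelium, at 328 ± 66.5 TPM. Cxcl12, which fibroblasts secrete and which holds cells in tissue, stood at 71.1 ± 18.0 TPM. Cxcl9, induced by interferon gamma, stood at 15.1 ± 5.19 TPM and had the largest CV of the detected members, at 24.2, 27.8, 10.2 and 27.5 CPM. Mouse 21 was the low one. Ifng, the interferon gamma gene, had 0 counts in all 4 libraries, and Csf3 had 1. For a single library of this depth a count of 0 allows up to 3 counts. Counts of 21 of 34 tested ligand genes differed beyond counting error, against 50.8% of all tested genes. Of the 33 detected, 8 differed by 2-fold or more, against 14.4% of all detected genes. The number with a 2-fold range was 5 without mouse 6, 4 without mouse 21 and 2 without mouse 29. All detected genes gave 7.32%, 11.3% and 11.6% in these cases.

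Fat cell genes were abundant and were the most uneven of the large groups. All 20 were detected, with a median of 178 TPM, and the highest after Fabp4 were Scd1, a fatty acid desaturase, at 2764 ± 1276 TPM and Cfd, the secreted protease adipsin, at 2352 ± 1268 TPM. Fabp4 read 639, 3080.5, 1592 and 2589 CPM. Scd1 read 2406, 9779, 6076 and 9378 CPM, and Fasn, fatty acid synthase, read 134, 1422, 1165 and 1109 CPM. Mouse 3 was far below the other mice for each. Retn, the adipocyte hormone resistin, read 17.7, 182, 93.2 and 147 CPM, a 10.3-fold range, and Slc2a4, the insulin-responsive glucose transporter, read 3.73, 32.9, 16.01 and 25.4 CPM. The summed level of the 20 genes was 5308 TPM in mouse 3, 19469 in mouse 6, 12537 in mouse 21 and 18070 in mouse 29.

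The order of the mice was nearly the same from gene to gene. Mouse 3 was lowest for 20 of 20, against 4314 of all 14868 detected genes, and mouse 6 was highest for 18 of 20. Differences of 2-fold or more were found for 18 of 20, against the 14.4% of all detected genes given above. Counts of 19 of 20 differed beyond counting error, against 50.8% of all tested genes. The exceptions by size were the regulators. Pparg, the master regulator of fat cell formation, read 46.4, 50.9, 54.3 and 50.3 CPM, with a CV of 6.46% where counting error alone gives 5.74%. Its counts were not called different. Cebpa, its partner, read 194, 269.8, 208 and 249.6 CPM, a 1.39-fold range. Both genes are also expressed by macrophages. Left without mouse 3, the list kept 2 of 20 genes with a 2-fold range, where all detected genes gave 8.61%, and the range of its mean log2 CPM shrank from 1.83 to 0.61. Genes outside the list with the same low value in mouse 3 were Thrsp, a regulator of fat synthesis, at 13.4, 379, 180.4 and 357 CPM, and Adig, adipogenin, at 4.13, 48.2, 17.9 and 36.9 CPM. Of 8 brown fat genes 3 were detected in all 4 libraries, and 7 without mouse 3, where all detected genes went from 14868 to 15126. Their summed level was 27.5, 197, 95.5 and 156 TPM, again lowest in mouse 3. Cox8b was the highest at 91.1 TPM and read 3.54, 31.7, 10.9 and 22.6 CPM. Ucp1, the uncoupling protein, had 1, 16, 11 and 21 counts.

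The bases before the start of Adipoq (chr16:23146476-23146535, plus strand) are shown because Adipoq is the marker of this group and its promoter holds the CCAAT box 3 times, in capitals on either strand.
Adipoq: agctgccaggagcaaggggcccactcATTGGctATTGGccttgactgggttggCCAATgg

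Such a box was found in 6 of 14 fat cell genes with a promoter, or 42.9%, a share near that of all detected genes.

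**Figure D2:**
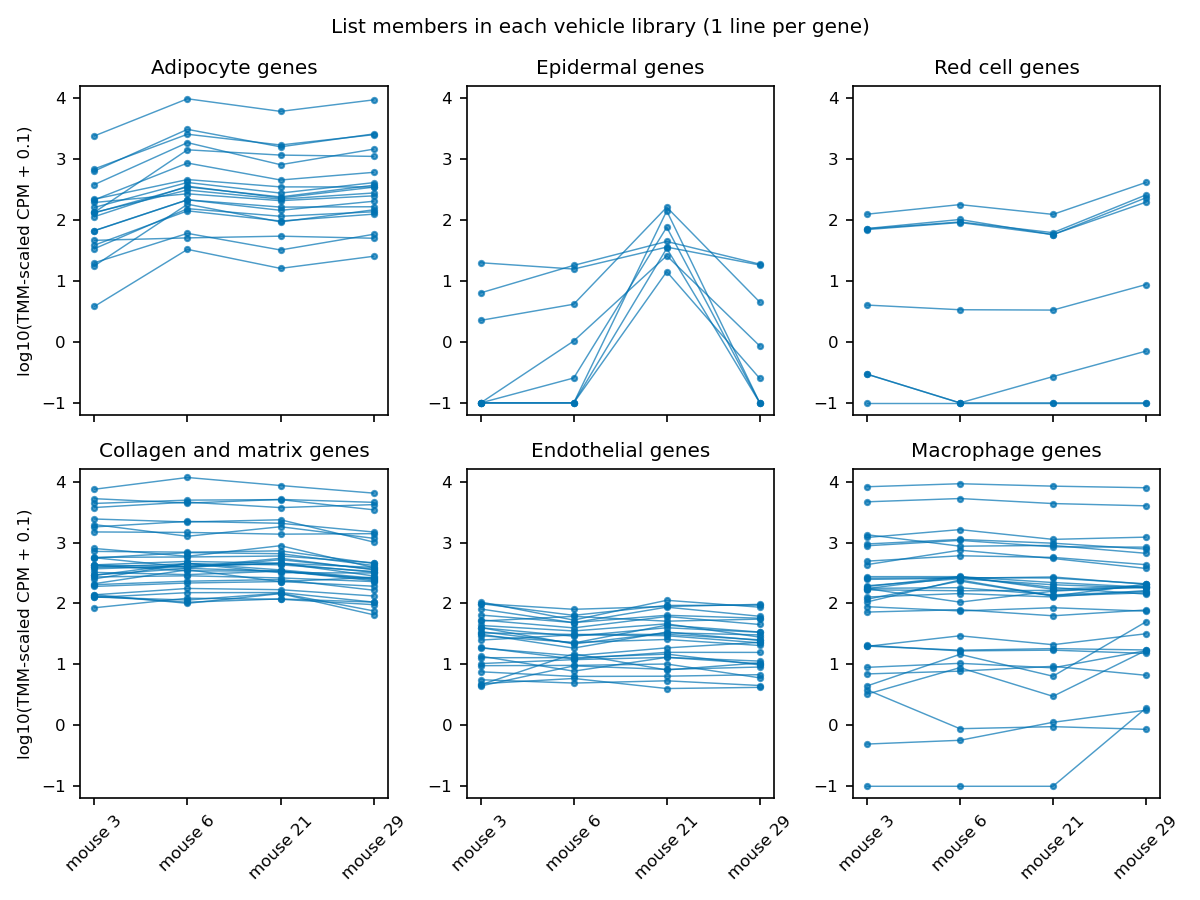
TMM-scaled CPM of the members of 6 lists in each vehicle library, as log10(CPM + 0.1), with 1 line per gene; the order of the mice has no meaning. Adipocyte genes are low together in mouse 3, epidermal genes are high in mouse 21 and red cell genes are high in mouse 29, while most matrix, endothelial and macrophage lines differ less between mice, with exceptions such as Retnla in mouse 29.

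Epithelial genes of the mouse were found as well, and here human reads on a conserved mouse gene could add to a count; their share was not measured. Of 21 mammary luminal genes 18 were detected, led by Krt8 at 396 ± 58.5, Krt18 at 90.4 ± 34.7 and Krt7 at 88.2 ± 13.7 TPM, keratins of simple epithelium. Krt8 read 445, 346, 367 and 414 CPM. Krt18 read 48.3, 60.3, 98.6 and 55.3 CPM, and Epcam, an epithelial adhesion protein, read 33.0, 33.4, 60.3 and 26.1 CPM. Mouse 21 was the highest for 12 of 18 luminal genes, against 19.7% of all detected genes. A 2-fold range was found for 12 of 18, against 14.4% of all detected genes, and without mouse 21 for 4 of 18, against 11.3%. Basal genes were detected for 5 of 7, all 5 highest in mouse 21. Krt5, a keratin of basal cells of mammary gland and skin, read 49.5, 29.8, 111 and 36.9 CPM. Its partner Krt14 read 21.4, 22.5, 108 and 15.3 CPM. Without mouse 21 none of the 5 differed by 2-fold, against 11.3% of all detected genes. The summed level of the 8 epidermal genes described next moved with these values, at 31.6 TPM in mouse 3, 38.4 in mouse 6, 580.5 in mouse 21 and 43.7 in mouse 29, and their part in the basal and luminal values was not tested.

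Genes of cornified skin appeared in mouse 21 and hardly elsewhere. Krt1, a keratin of the upper epidermis, had 0, 0, 829 and 0 counts. Lor, which encodes loricrin of the cornified envelope, had 0, 1, 447 and 0 counts, and Flg, filaggrin, had 0, 0, 201 and 0. Taken against 3 counts in mouse 3, Krt1 was at least 239.5-fold, Lor at least 129-fold and Flg at least 58.1-fold higher in mouse 21. Krt10, the partner of Krt1, read 2.16, 4.06, 162 and 4.40 CPM. All 8 listed epidermal genes were highest in mouse 21, although 3 of them were detected by the rule of 1 CPM in every library. The hair root genes Tchh and Krt71 had 3, 2, 353 and 1 counts and 0, 0, 306 and 2 counts. Among genes with a mean of at least 10 CPM, the 10 with the largest CV over the 4 mice were Krt1, Krt2, Calm4, Lor, Krt71, Tchh, Krt10, Dmkn, Asprv1 and Lgals7, each of them highest in mouse 21. All 10 reached that mean only through mouse 21, so none of them could enter the same ranking without it, and the genes of largest CV were then led by Retnla, Dmbt1 and Thrsp.

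The 60 bases before the start of 4 epidermal genes are shown because the genes were high together in mouse 21 and each holds the letters TATAAA (in capitals, gene strand), which are those of the TATA box. In Flg they lie farther from the start than in the other 3. They lie at chr11:99389365-99389424 for Krt10 and chr3:92083143-92083202 for Lor, both on the minus strand, and at chr3:93273486-93273545 for Flg and chr7:30787845-30787904 for Krtdap, both on the plus strand. Krtdap encodes a secreted protein of differentiating keratinocytes and had 0, 6, 152 and 5 counts. Ccl8 (chr11:82115125-82115184, plus strand) and Vim (chr2:13574251-13574310, plus strand) are set beside them as abundant host genes with the same letters.
Krt10: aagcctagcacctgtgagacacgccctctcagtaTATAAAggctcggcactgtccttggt
Lor: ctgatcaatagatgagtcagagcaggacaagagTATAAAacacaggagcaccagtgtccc
Flg: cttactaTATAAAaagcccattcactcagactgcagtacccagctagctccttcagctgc
Krtdap: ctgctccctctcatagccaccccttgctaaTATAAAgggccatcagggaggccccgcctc
Ccl8: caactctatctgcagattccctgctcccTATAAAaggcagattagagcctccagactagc
Vim: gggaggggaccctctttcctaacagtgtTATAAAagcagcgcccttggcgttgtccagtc

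TATAAA was found in this window and on this strand in 4 of the 5 epidermal genes with a RefSeq promoter, in 2.87% of all promoters and in 2.03% of those of detected genes. Among the 100 detected genes of highest TPM it was found in 12. It was present in 4.01% of detected genes with a 2-fold range or more and in 1.74% of those below it. These are counts of letters, and no factor was measured.

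The mouse copies of the amplified region of the tumour were read too. Erbb2 (chr11:98412470-98437716, plus strand), the mouse HER2 gene, stood at 58.7 ± 19.9 TPM and read 191, 84.5, 155 and 161 CPM. Med1, from the same chromosomal neighbourhood, read 183, 91.7, 169 and 148 CPM. Both were lowest in mouse 6. Of the 7 detected genes of this list 6 were lowest in mouse 6, against 30.8% of all detected genes. The list also holds Erbb3, which lies outside this region, so it is not a list of the region alone. Mien1, which ends over the last exon of Erbb2 on the other strand, read 36.9, 52.0, 35.1 and 51.0 CPM and was the exception. Because the libraries do not mark strand, reads in that overlap cannot be assigned. Without mouse 6 the range of the list's mean log2 CPM was 0.21 in place of 0.65.

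Cell cycle genes were all detected, with a median CV of 18.3%, against 16.4% for all detected genes. Pcna, the clamp of DNA replication, stood at 84.0 ± 10.1 TPM and read 59.7, 64.2, 72.6 and 62.7 CPM. Of 15 genes 6 differed beyond counting error, against 50.8% of all tested genes, and 2 by 2-fold or more, a share near the 14.4% of all detected genes. Mouse 6 was lowest for 8, against 30.8% of all detected genes. Top2a, topoisomerase II alpha, read 217, 69.5, 197 and 117 CPM. It differed by 3.13-fold and was lowest in mouse 6. Mki67, a marker of dividing cells, read 41.9, 45.3, 52.0 and 26.4 CPM and was 1 of the 4 genes lowest in mouse 29. Top2a lies near Erbb2 on chromosome 11. The part of human reads in Erbb2, Med1 and Top2a was not tested.

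Genes of blood and of neighbouring tissue were uneven between mice, and the amount of these tissues in each sample was not tested. The haemoglobin genes Hba-a1 and Hba-a2 are near-identical copies, so their reads can be split between them. Hba-a1 read 71.7, 93.1, 62.0 and 259 CPM and Hba-a2 read 72.5, 102, 57.4 and 232 CPM. Alas2, the enzyme that starts haem synthesis in red cells, read 3.93, 3.28, 3.24 and 8.65 CPM. All 5 detected red cell genes were highest in mouse 29 and lowest in mouse 21. Without mouse 29 none of the 5 differed by 2-fold, against 11.6% of all detected genes. The range of their mean log2 CPM was then 0.52 in place of 1.78. Pf4, a platelet chemokine, read 9.43, 15.0, 10.4 and 26.0 CPM and was also highest in mouse 29. Glycam1, which is made by the high vessels of lymph nodes and by lactating mammary gland, had 3, 1, 4 and 142 counts.

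Of 15 skeletal muscle genes 6 were detected. Acta1, skeletal muscle actin, was listed at 994 ± 250.1 TPM, and Actc1, the actin of heart muscle, which was not on the list, at 226 ± 68.1 TPM. The muscle creatine kinase gene Ckm had 3, 2, 10 and 53 counts and Myh4, a fast myosin, had 2, 1, 0 and 38. Actin genes share long near-identical stretches, and Actb and Actg1 stood at 3414 ± 427 and 2140.2 ± 161 TPM, so the values of Acta1 and Actc1 are uncertain. Pvalb and Tnnt3, proteins of fast muscle fibres, were highest in mouse 29 at 47 and 34 counts, against at most 14 and 9 in the other mice. Hepatocyte genes, a tissue not sampled, gave a view of the background: of 10 genes 6 were at the floor and 1 was detected, Alb at 2.16, 8.90, 5.28 and 5.77 CPM. Of 10 neuron genes 4 were detected, the highest being Slc17a7 at 4.33 ± 1.84 TPM.

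**Figure D3:**
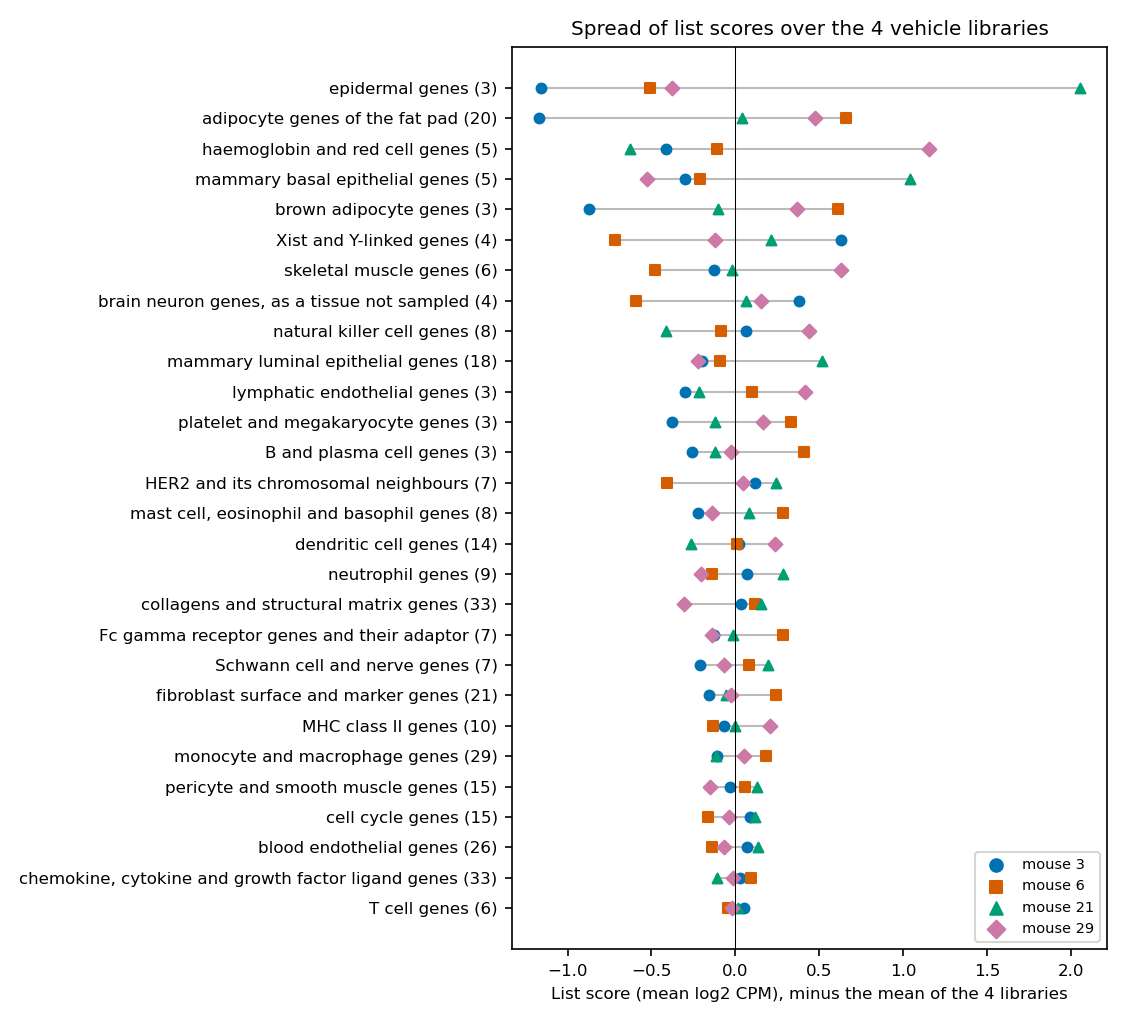
Spread of 28 lists over the 4 vehicle libraries, as the mean log2 CPM of the detected members of a list in each mouse minus the mean of the 4 mice (number of detected members in parentheses). Epidermal, adipocyte and red cell lists spread most because of mouse 21, mouse 3 and mouse 29, and the scores of the chemokine and T cell lists spread least, although 5 of the 6 T cell genes each had a 2-fold range, in different orders.

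Over all detected genes, the median CV between mice was 16.4%, where counting error alone gives a median of 8.33%, and 90% of genes had a CV under 33.6%. The common biological coefficient of variation in edgeR was 0.181, and 0.154 without mouse 6. No pair of libraries agreed within counting error. Across detected genes the closest pair was mice 3 and 21, with a Pearson r of log2 CPM of 0.982, and the most distant was mice 3 and 6, with 0.958. These r are over genes, which are not independent. Between mice 3 and 6, 7.63% of detected genes differed by more than 2-fold, and between mice 3 and 21, 2.21% did. Leaving out mouse 6 lowered the number of genes with a 2-fold range from 2147 to 1106, leaving out mouse 3 lowered it to 1302, and the number called beyond counting error went from 8135 to 5095 without mouse 6. Of the 6 pairs, mice 3 and 6 thus differed by 2-fold for the most genes.

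**Figure D4:**
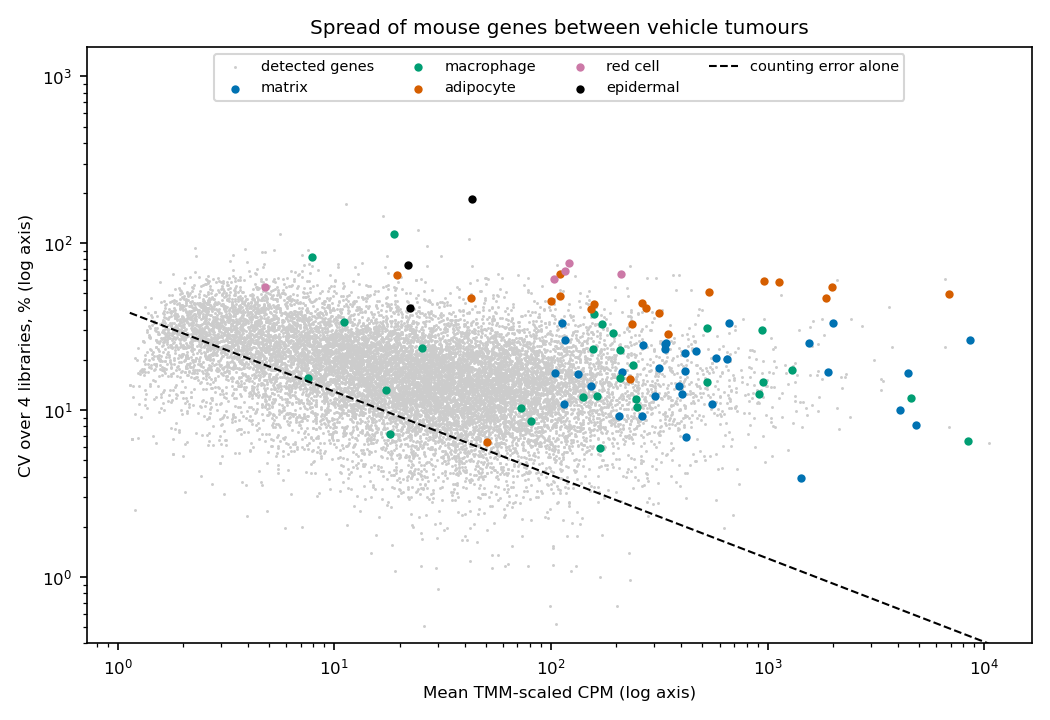
CV over the 4 vehicle libraries against mean TMM-scaled CPM of each detected gene, both on log axes; the dashed line is the CV that counting error alone gives. Matrix genes lie between 3.91% and 33.3%, most adipocyte and all detected red cell genes lie above them, and Krt10 is the black point at 184%.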

How the data were processed

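Mouse gene counts of the 4 vehicle libraries were analysed. The deposited values are raw, unnormalised read counts, 1 per mouse symbol and library. Per the submitters' processing notes, CASAVA 1.8.2, TopHat2, HTSeq and build mm10 were used; what is not given in the sources used here is their settings, the gene annotation, and whether human reads were taken out before counting. Per the labels' protocols, 1 ug of total RNA entered a library kit, which does not mark strand.

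Counts were scaled by TMM (edgeR 4.0.16, R 4.3.3) to CPM. TPM used union exon lengths of the GENCODE M21 basic set, which matched 23351 of 24681 symbols (94.6%); the rest, 1.15 to 2.10% of counts, have no TPM. The 4 counts of a gene were compared with a chi-square test of homogeneity (3 degrees of freedom, expected count of at least 5 in each library, adjusted p under 0.05 by Benjamini-Hochberg over all tested genes; SciPy 1.17.1), checked on simulated data. It tests difference beyond counting error, not biological replication, and misses part of the small differences at low counts. In the simulated data it also missed part of the genes changed 2-fold, up or down, in a single library. The pass limit of this check was reset after the first limit was missed, and the test itself was not changed. List scores are mean log2 CPM of detected members (prior count 2). With 4 libraries no relation between 2 measures across samples is given; the r between libraries is over genes.

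Members and lists were chosen with earlier results of these data known. Named genes are the 4 given markers; for each list, the 3 of highest TPM, the detected one of largest CV and up to 3 at the floor; the 15 highest genes; and the 10 of largest CV with a mean of at least 10 CPM. Other named genes, the 2-fold range, both promoter motifs and the printed promoters were chosen after values were seen. Loci named after clones were counted as predicted. Alternatives were other scalings (total count, DESeq2 1.42.0 size factors, TMM over 16 libraries), detection limits of 0.5 and 5 CPM, another length, other count minimums, a prior count of 0.5, all list genes with a count, and each mouse left out. List symbols with no matching row were not analysed here.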

Additional observations from a re-analysis of the deposited data

Results flagged for a closer look

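Named genes and list scores were searched for a library that stood apart from the other 3, by the gap from the highest or lowest library to its neighbour as a share of the whole range, against Dixon's 95% limit for 4 samples. Of 155 values examined 19 passed. Chance alone flags about 1 in 20, but the genes examined include the 10 of largest CV, chosen for their spread, so the number cannot be read against that rate.

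In 13 cases mouse 21 was the high library. The gap share was 1 for Krt1 and 1 for Krt2, 0.9979 for Lor, 0.9972 for Calm4, 0.9942 for Krt71, 0.9927 for Tchh, 0.991 for Asprv1, 0.986 for Krt10 and 0.9638 for Krtdap. It was 0.9534 for Dmkn, 0.938 for Krt17, 0.9231 for Krt14 and 0.913 for Lgals7. Most of these are genes of cornified skin or hair. Krt14 and Krt17 are shared by skin and the basal layer of the mammary gland.

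In 5 cases mouse 29 was the high library. These were Glycam1 with a gap share of 0.9755, the muscle genes Pvalb with 0.9406 and Tnnt3 with 0.8919, and the red cell genes Alas2 with 0.8719 and Hba-a1 with 0.8421. Emr1, with 0.9021, was flagged because mouse 29 was low, although its whole range was 1.26-fold.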

How the results depend on the processing

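No paired analysis was possible because every mouse number occurs once and only 1 group was described. Of 305 values recomputed under another setting, 277 moved by less than the limit set for them, 28 moved by more and none reversed. Other scalings, lengths, detection limits and count minimums changed no count of genes by more than 1.5 times. With 1 mouse left out in turn, genes called beyond counting error numbered 5095 to 7229, genes with a 2-fold range 1106 to 1742, and the common biological coefficient of variation was 0.154 to 0.197. The range of the list score (log2) was 0.12 to 0.48 for matrix, 0.61 to 1.83 for fat cell, 0.32 to 1.58 for mammary basal and 0.52 to 1.76 for red cell genes. The lowest values came without mouse 29 for matrix and red cell genes, without mouse 3 for fat cell genes and without mouse 21 for mammary basal genes. With total count scaling the T cell score range was 0.17 in place of 0.09, and with all list genes that had a count it was 0.33. That setting also moved the score range of epidermal genes from 3.21 to 5.58, of B and plasma cell genes from 0.67 to 0.21 and of platelet genes from 0.71 to 0.26. With 4 libraries of 4989001 to 6650009 counts, a gene at 1 CPM rests on few reads, so the order of mice is not resolved for genes near the detection limit.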

Other observations

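Several values fell outside the lists. The major urinary protein genes Mup2 and Mup7, a family of near-identical copies between which reads can be split, read 128, 733, 321 and 373 CPM and 124, 693, 307 and 346 CPM in mice 3, 6, 21 and 29. The lectin genes Cd209f and Cd209g read 45.2, 129, 29.8 and 108 CPM and 35.2, 111, 27.1 and 107 CPM, high in mice 6 and 29. A clone-named locus, RP23-81C12.3, read 3345, 8776, 3064 and 11246 CPM and held 0.313% to 1.12% of a library's counts. Tenm1, which encodes a transmembrane protein of neurons, read 77.0, 9.68, 69.8 and 41.7 CPM, an order shared with Top2a (217, 69.5, 197 and 117 CPM) in that mouse 6 was lowest and mouse 3 highest. Dmbt1, an epithelial scavenger receptor gene, read 30.7, 1.87, 61.3 and 13.8 CPM.

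Xist, the RNA of the inactive X chromosome, read 381, 286, 502 and 244 CPM. The Y-linked genes Eif2s3y, Ddx3y and Uty were detected, with Uty at 0.779 TPM, and Kdm5d was at the floor. Eif2s3y had 46, 21, 33 and 46 counts, Ddx3y had 29, 7, 25 and 24 counts and Kdm5d had 1, 0, 1 and 0 counts. Their source was not tested.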
